A study of Citrullus lanatus with 6 samples.

Results

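The sites described here are 298 peaks of ClNAC56, a watermelon (Citrullus lanatus) transcription factor of the NAC family, that lie in the middle of the chromosomes and were found in both distinct peak lists of the series, T2 and T3. They were taken from DNA affinity purification sequencing (DAP-seq), an assay that incubates an in vitro protein with naked genomic fragments and sequences those it retains. The series has 3 samples of leaf genomic DNA with in vitro ClNAC56 protein and 3 with in vitro MBP protein, the maltose-binding protein, as the control. No label ties a list to a library or states pooling, so no value below carries an error between libraries, and the lists may share reads. Both lists are taken as peaks of ClNAC56, the stated subject of the series, and peaks of the MBP control were not analysed here.

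A site was a member if its T3 peak overlapped a T2 peak by at least 1 bp and its T3 summit, the base with the most fragments, lay between 40% and 60% of the chromosome's length. The length was taken as the last peak end in either list. Of 2487 shared T3 peaks on the 11 assembled chromosomes, 298 lay in this central window and 2189 lay elsewhere. The lists hold 3288 (T3) and 2846 (T2) peaks, 6134 in all. The window is defined by length alone. Where the centromeres lie was not analysed here.

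NAC proteins are a family of plant transcription factors that bind DNA through a conserved N-terminal NAC domain, usually as dimers. Members of the family take part in leaf senescence, fruit ripening, secondary wall formation and responses to stress. In many plant chromosomes the regions around the centromere are rich in repeats and poor in genes, whereas the arms hold most genes. DAP-seq uses DNA without the nucleosomes of the living cell, so a peak reports binding in vitro and not occupancy in a leaf. The bases and the genes at these sites were not analysed here.

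Central ClNAC56 sites were sparse on most chromosomes. The central window held 4.15 ± 1.09 shared peaks per Mb and the rest of the chromosome held 7.57 ± 0.810 (mean ± SD, 11 chromosomes). The density in the window was lower on 11 of 11 chromosomes, but the size of the gap varied. Chromosome 11 had 15 members, or 2.44 per Mb in the window against 8.97 elsewhere, a ratio of 0.271. Chromosome 4 had 35 members, or 6.46 per Mb in the window against 7.01 elsewhere, a ratio of 0.921. Chromosome 9 had the most members, 40, at 5.32 per Mb in the window and 7.58 elsewhere. The ratios of the other 8 chromosomes lay between these of chromosomes 11 and 9, and chromosome 4 was the one that came close to even spacing. Density was used to describe the window and was not tested, because the lower central density was already known from these lists.

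**Figure D1:**
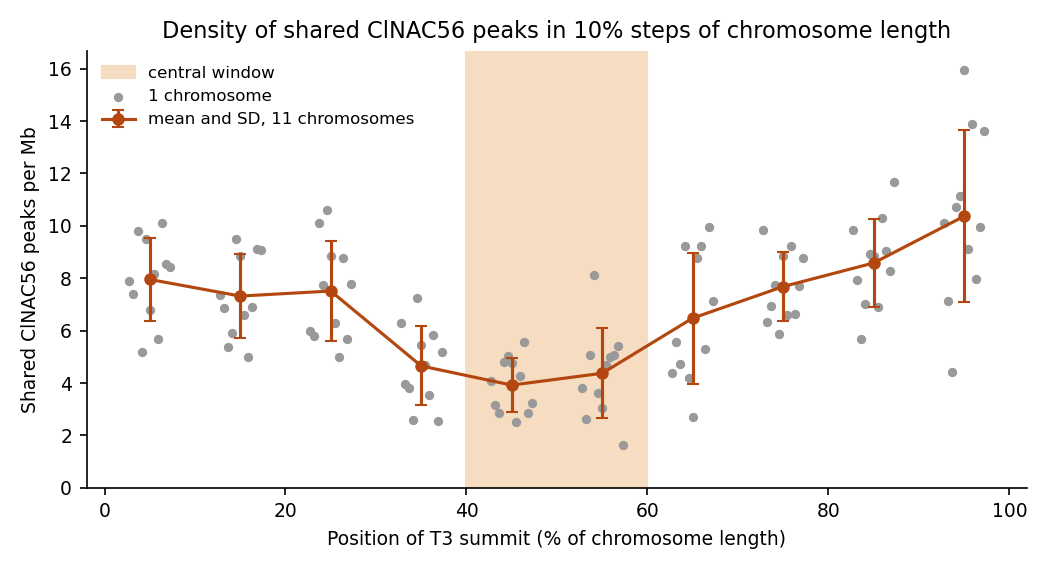
Shared ClNAC56 peaks per Mb (y axis) in each 10% step of chromosome length (x axis, percent of length). Grey points are single chromosomes, orange points and bars are the mean and SD of 11 chromosomes, and the shaded band is the central window. The mean is 3.92 and 4.37 per Mb in the steps inside the window and 10.37 in the last step.

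In the mean over chromosomes, the sparse zone was wider than the window on its left side. The 10% step from 30% to 40% of the length held 4.65 ± 1.51 shared peaks per Mb (SD, 11 chromosomes), close to the 3.92 ± 1.04 and 4.37 ± 1.72 of the steps from 40% to 50% and from 50% to 60%. The step from 60% to 70% held 6.48 ± 2.50. On chromosomes 1, 5, 6 and 9, however, this step was sparser than that from 30% to 40%. On chromosome 6 they held 2.72 and 5.44 per Mb. Within the window, the 4 steps of 5% held 78, 64, 84 and 72 members in order of position, so no step of the window was empty or dominant.

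Members also lay further from their neighbours than shared peaks elsewhere did. Whether they were less even than spacing at their own density was not tested. Neighbouring summits in the window lay a median of 152 ± 44.7 kb apart (mean ± SD of chromosome medians), against 85.4 ± 8.96 kb elsewhere, and the window had the longer median on 11 of 11 chromosomes. On 9 of the 11 chromosomes the longest stretch between neighbouring shared summits fell at least partly in the window, and on 4 of them, chromosomes 1, 5, 7 and 11, it lay wholly inside. The longest of all was on chromosome 7, where 2056 kb between 47.0% and 53.5% of the length held no shared summit. Chromosome 10 had a stretch of 1907 kb that reached the window only at its edge, at 40.4%. Chromosomes 4 and 8 had their longest stretch outside the window, at 34.3% to 38.4% and 64% to 67.2%. Spacing and density count the same positions, so these stretches are no separate support for the lower density.

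**Figure D2:**
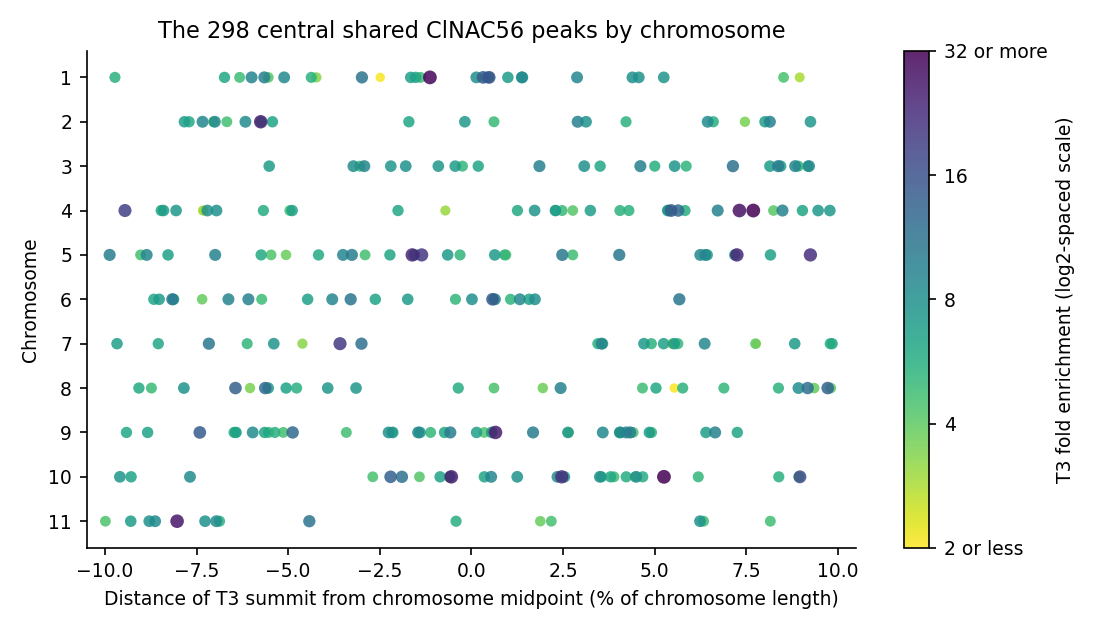
The 298 central members by chromosome (y axis) and distance of the T3 summit from the chromosome midpoint (x axis, percent of chromosome length). Darker and larger points have a higher T3 fold enrichment on a log2-spaced scale; chromosome 7 is empty from 47.0% to 53.5% of its length and chromosome 9 has the most points, 40.

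Few members formed close groups. A neighbouring shared summit within 10 kb was found for 33 of 298 members (11.1%, 95% Wilson interval 7.99 to 15.1) and for 338 of 2189 shared peaks elsewhere (15.4%, 13.99 to 17.0). The share over all shared peaks was 14.9%, inside the interval of the members. The closest pair of members, on chromosome 9, had summits 943 bp apart. The peak from 20324074 to 20324441 had a fold of 6.53 in T3 and 4.44 in T2. Its neighbour from 20325151 to 20325486 had folds of 2.85 and 2.98 on 54 and 62 fragments, the fewest fragments in T3 of any member.

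Strength of the members is given by the fold enrichment that the authors deposited for each peak, the pileup at the summit over the local background of the peak caller. The median fold of members was 6.90 in T3 (interquartile range 5.35 to 8.70) and 6.38 in T2 (5.17 to 8.05). Shared peaks elsewhere had medians of 6.50 in T3 (5.30 to 8.54) and 6.08 in T2 (5.06 to 7.91). Central folds were thus slightly higher at the median, but this did not pass the test. The test compared the median of the members with that of shared peaks elsewhere on the same chromosome, with the 11 chromosomes as units, by a two-sided exact sign-flip permutation test adjusted over 7 measures by Benjamini-Hochberg. The log2 difference in fold was 0.06 ± 0.03 in T3 (SE, 11 chromosomes, higher on 9, adjusted exact permutation p = 0.126) and 0.08 ± 0.04 in T2 (higher on 7, adjusted p = 0.126). Chromosomes of the same libraries are not replicate experiments, so such a p describes how regular a difference is along this genome in these lists. Chromosomes 7 and 8 had lower T3 folds in the window, with medians of 6.15 on chromosome 7 and 5.92 on chromosome 8, against 6.31 and 6.78 elsewhere. In T2, chromosomes 2 and 4 were lower in the window too. The difference depended on the setting. Without chromosome 8 it was 0.09 in T3 (adjusted exact permutation p = 0.0205) and 0.11 in T2 (adjusted p = 0.0365). With chromosome means it was 0.0026 in T3 (higher on 5 of 11, adjusted exact permutation p = 0.958) and 0.0092 in T2 (adjusted p = 0.958). With a window from 45% to 55% it was 0.021 in T3 (adjusted exact permutation p = 0.712). Over all T3 peaks, shared or not, a set added after seeing the data, it was 0.01. Its adjusted exact permutation p was 0.698, over T3 fold, fragments, background and width only.

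Strong sites did occur in the middle of chromosomes. A T3 fold of 10 or more was reached by 42 members (14.1%, 95% Wilson interval 10.6 to 18.5) and by 388 shared peaks elsewhere (17.7%, 16.2 to 19.4), against 17.3% of all shared peaks. In T2, 33 members (11.1%, 7.99 to 15.1) and 286 peaks elsewhere (13.1%, 11.7 to 14.5) reached it, against 12.8% of all shared peaks. A T3 fold of 20 or more was reached by 13 members (4.36%, 2.57 to 7.32) and by 69 peaks elsewhere (3.15%, 2.50 to 3.97), against 3.30% of all. These shares lie near those of all shared peaks. Every chromosome had at least 1 member with a T3 fold of 10 or more, from 1 on chromosome 2 to 6 each on chromosomes 5 and 10.

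The strongest member by the lower of its folds in T2 and T3 lay on chromosome 4 from 15629665 to 15630413, at 57.7% of the length. Its fold was 67.3 in T3 and 45.2 in T2, and it ranked 2 among all shared peaks by that measure. The summit carried 1643 fragments in T3 (exact Poisson 95% interval 1565 to 1724) and 1207 in T2 (1140 to 1277), recovered from the deposited pileup, over a background of 5.0 in each list. A further strong member had its summit 102493 bp away on the same chromosome, from 15527255 to 15527869, whose fold was 28.1 in T3 and 16.6 in T2. Chromosome 4 held a further site of the 10 strongest at the left edge of the window, from 10983886 to 10984430 (40.5% of the length), enriched 18.9-fold in T3 and 16.8-fold in T2.

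A pair of the 10 strongest members lay on chromosome 10. Its stronger site, from 19392000 to 19392613, had folds of 39.2 in T3 and 26.9 in T2 on 710 and 535 fragments. The one from 18413220 to 18413812 was enriched 22.1-fold in T3 and 17.7-fold in T2, over the lowest background of each list. On chromosome 11, which was the sparsest, the site from 12922285 to 12922842 had folds of 27.0 in T3 and 21.9 in T2 and ranked 3 among the members.

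The other members of the 10 strongest lay on chromosomes 1, 2, 5 and 9. The chromosome 1 site from 17907928 to 17908547, close to the midpoint at 48.9% of the length, had folds of 30.8 in T3 and 19.4 in T2. The chromosome 2 site from 16747357 to 16747949 had a T3 fold of 24.8 and a T2 fold of 19.1 and had another shared summit 1012 bp away. The chromosome 9 site from 19050287 to 19050900 reached 25.9 in T3 and 17.95 in T2, and the chromosome 5 site from 21249003 to 21249557 reached 21.96 and 16.6. At all 10 sites the T3 fold was the higher, by a factor of 1.12 to 1.70. It was also the higher at 70.6% of all shared peaks, and strong peaks elsewhere were not counted apart. The summits of the 10 sites in T2 and T3 lay 1 to 9 bp apart and their T3 peaks were 545 to 749 bp wide.

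On the remaining chromosomes the strongest member was weaker. It had folds of 19.7 in T3 and 12.7 in T2 on chromosome 7 (14792465 to 14792927), 14.6 and 13.6 on chromosome 6 (14886833 to 14887218), and 13.6 and 13.2 on chromosome 8 (12246465 to 12246983). Chromosome 3 had the weakest leader, at 18073890 to 18074277, with folds of 11.2 and 10.97 on 170 fragments in T3 (exact Poisson 95% interval 145 to 198) and 182 in T2 (157 to 210). The chromosome 6 leader had a T3 background of 12.9, above that of each of the 10 strongest members, which ran from 2.79 to 6.0.

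Central members differed from other shared peaks most clearly in the background at their summits. The background was computed from the deposited values as (pileup + 1) / fold - 1 and is on the scale of the pileup. Its chromosome medians in T3 averaged 3.52 ± 0.437 for members and 4.18 ± 0.143 for shared peaks elsewhere (SD, 11 chromosomes). The log2 difference was -0.25 ± 0.06 (SE), a ratio of 0.838, and the background was lower on 10 of 11 chromosomes (adjusted exact permutation p = 0.0205). The largest gap was on chromosome 11, with a median of 2.999 in the window and 4.46 elsewhere. Chromosome 7 was the exception, at 4.28 in the window and 4.26 elsewhere. On chromosome 4, counted as lower, the medians were 3.999 and 4.001. These were so close that rounding of the deposited values could set the sign. In T2 the chromosome medians averaged 3.56 ± 0.443 for members and 4.23 ± 0.132 elsewhere. The call was lost with a window from 45% to 55% of the length (-0.16, adjusted exact permutation p = 0.142) and with chromosome means in place of medians (-0.11, adjusted p = 0.734, the largest over the planned settings, where the smallest was 0.00342).

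The lower background came with fewer fragments at the summit. The chromosome medians averaged 128 ± 9.42 T3 fragments for members and 138 ± 6.45 elsewhere (SD, 11 chromosomes). The log2 difference of -0.12 ± 0.04 (SE), a ratio of 0.923, passed the test narrowly (lower on 8 of 11 chromosomes, equal on 1, adjusted exact permutation p = 0.0479). It no longer passed in 7 of the 11 repeats that each left out a chromosome (1, 2, 3, 4, 9, 10 or 11), at -0.10 to -0.12 and adjusted p of 0.0684 to 0.0957 (other planned settings, 0.00342 to 0.734). In T2 the medians averaged 134 ± 12.2 fragments for members and 144 ± 6.60 elsewhere. Fold, fragments and background are tied by arithmetic, since the fold is the pileup plus 1 over the background plus 1, so these are not separate findings. T3 fragments also rose with T3 background, with a Spearman's rho of 0.473 among members and 0.466 elsewhere. Peaks were called against that background, and how far this bears on the difference in fragments was not tested. The −log10 q deposited by the authors had a median of 14.7 for members and 15.96 elsewhere in T3, and of 13.2 and 13.9 in T2, which was not tested.

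**Figure D3:**
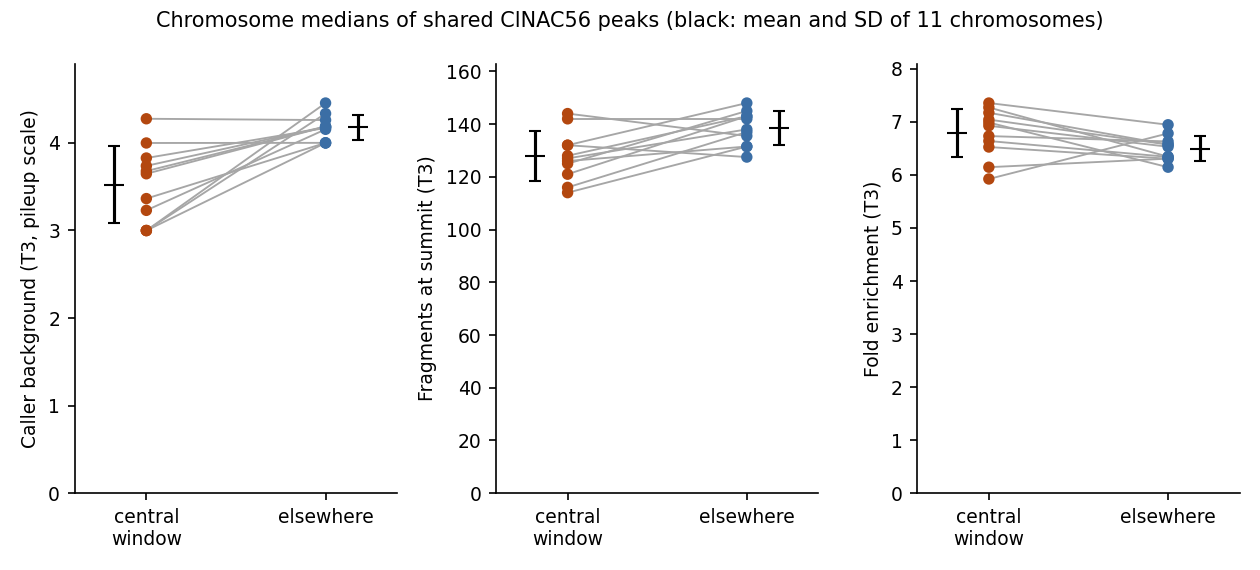
Median T3 caller background (left, pileup scale), T3 fragments at the summit (middle, count) and T3 fold enrichment (right) of shared peaks on each of the 11 chromosomes, central window left of elsewhere in each panel. Lines join the values of 1 chromosome and black bars are the mean and SD; background averages 3.52 in the window and 4.18 elsewhere.

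Members often had the lowest background of the list, a value that recurs. MACS2, which the submitters' processing notes name, by design compares each summit with the largest of several estimates of background, so that the value used cannot fall below the genome-wide estimate. The lowest background in T3 was 2.79. It was the background, within 0.5%, of 86 of 298 members (28.9%, 95% Wilson interval 24.0 to 34.2) and of 221 of 2189 shared peaks elsewhere (10.1%, 8.90 to 11.4), against 12.3% of all shared peaks. In T2, where the lowest value was 2.80, 86 members (28.9%, 24.0 to 34.2) and 206 peaks elsewhere (9.41%, 8.26 to 10.7) had it, against 11.7% of all. The share was higher in the window on 11 of 11 chromosomes in each list. It ran from 11.5% on chromosome 8 to 46.7% on chromosome 11 in the window, and from 6.79% on chromosome 11 to 17.1% on chromosome 4 elsewhere, in T3. Since 83 members had the lowest background in both lists, and the same control may stand behind them, the lists are not separate support. These shares were counted after the background had been compared, and they carry no test of their own.

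The share of peaks at the lowest background varied along the whole chromosome and was not particular to the window. In successive 20% steps of chromosome length it was 5.90%, 17.8%, 28.9%, 14.2% and 5.44% of shared T3 peaks. The central step had the highest share on 7 of 11 chromosomes and the lowest median background on 6. On chromosome 4 the first step was higher, with 11 of 30 peaks (36.7%) against 7 of 35 in the central step, and on chromosome 8 the central step, at 11.5%, lay below the step before it, where 6 of 24 peaks had the lowest background.

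**Figure D4:**
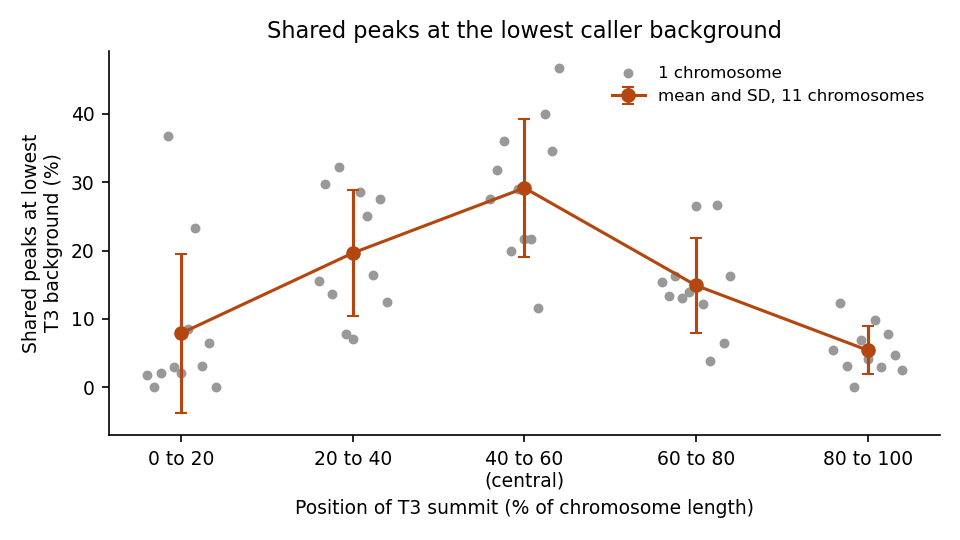
Percent of shared T3 peaks at the lowest T3 background (y axis) in 20% steps of chromosome length (x axis). Grey points are single chromosomes and orange points and bars are the mean and SD of 11 chromosomes; the mean is 29.1% in the central step, against 7.92% in the first and 5.43% in the last step.

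At the lowest background, central and other sites were close in strength. The 86 members at the lowest T3 background had a median of 109 fragments and a fold of 7.30 in T3, and the 221 such peaks elsewhere had 110 fragments and a fold of 7.37. The 212 members above it had a median of 140 fragments and a fold of 6.46, and the 1968 such peaks elsewhere had 142 fragments and a fold of 6.41. The same test was run in each class, adjusted over the fewer measures tested there. The log2 difference in fragments was -0.01 at the lowest background (adjusted exact permutation p = 0.905) and -0.03 above it (adjusted p = 0.79). This does not show that central and other sites were equal. The log2 difference in background among peaks above the lowest value was -0.06 (adjusted exact permutation p = 0.79). These splits were chosen after the values had been seen.

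A few members lay at the opposite end, with a very high background. In T3, 5 members (1.68%, 95% Wilson interval 0.719 to 3.87) and 17 peaks elsewhere (0.777%, 0.485 to 1.24) had more than 10 times the lowest background, against 0.885% of all shared peaks. Chromosome 7 carried a pair of them 8573 bp apart. The peak from 18406647 to 18407058 had the highest background of all members, 322 in T3 and 329 in T2. Its summit held 5434 and 6144 fragments, yet its fold was only 4.13 and 4.17. Its neighbour from 18415024 to 18415513 had the lowest fold of all members, 1.64 in T3 and 1.71 in T2, with backgrounds of 139 and 138. A chromosome 1 member (17411464 to 17411864) was enriched 2.05-fold in T3 and 2.11-fold in T2, with backgrounds of 311 and 315. A chromosome 8 member (15613535 to 15614075) was enriched 2.06-fold and 1.95-fold, with backgrounds of 38.0 and 41.0. At these 4 sites many fragments went with low enrichment over the background.

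Both lists ranked the members alike. Spearman's rho of the T3 and T2 folds was 0.929 over 298 members and 0.922 over 2189 shared peaks elsewhere, given as a description because both folds may share a control and reads. The T3 fold was the higher at 205 members (68.8%, 95% Wilson interval 63.3 to 73.8) and 1552 peaks elsewhere (70.9%, 69.0 to 72.8), against 70.6% of all shared peaks. The median T3 to T2 ratio was 1.07 among members, with a range of 0.758 to 1.82, and 1.08 elsewhere. The log2 ratio differed by -0.01 ± 0.02 (SE, adjusted exact permutation p = 0.446). Summits of the lists lay a median of 8 bp apart among members and 7 bp elsewhere, and the chromosome medians differed by 1.32 ± 0.557 bp (SE, adjusted exact permutation p = 0.109). All but 1 of the 298 members had summits within 100 bp, and the largest distance was 336 bp.

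**Figure D5:**
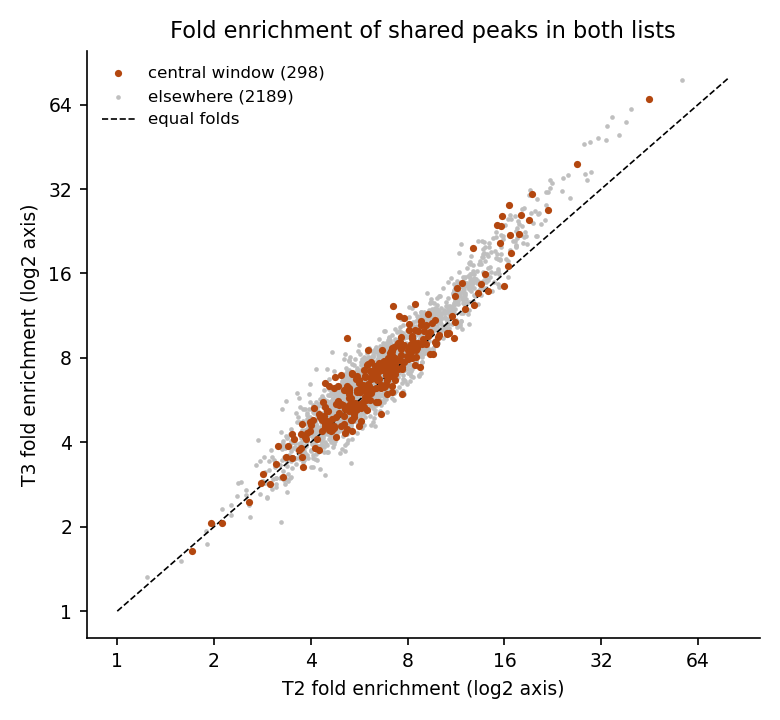
Fold enrichment in T3 (y axis) against T2 (x axis) of shared peaks, both on log2 axes. Orange points are the 298 central members, grey points the 2189 shared peaks elsewhere, and the dashed line marks equal folds; 205 members lie above the line and the strongest stands at 67.3 in T3 and 45.2 in T2.

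Members were of ordinary width. Their T3 peaks had a median of 396 bp (interquartile range 350 to 445) and those elsewhere 402 bp (359 to 464). The T2 medians were 386 bp in both groups. The chromosome medians in T3 differed by -7.59 ± 4.87 bp (SE, adjusted exact permutation p = 0.175). Among peaks at the lowest background, a split chosen after seeing the data, the difference was -28.3 bp (adjusted exact permutation p = 0.0234). That p was adjusted over T3 fold, fragments and width only, not over the 7 measures. The window nevertheless held the widest shared peak of T3. It lay on chromosome 2 from 20107183 to 20108759, 1577 bp in T3 but 888 bp in T2, with folds of 7.69 and 7.17 on 115 and 118 fragments. Next came a peak on chromosome 4 from 11562538 to 11564095, 1558 bp in T3 and 1521 bp in T2, enriched 3.0-fold and 3.29-fold, with backgrounds of 27.0 and 26.0. The third member by width, on chromosome 9 from 15262489 to 15263863, was 1375 bp in T3 and 1369 bp in T2, with folds of 6.13 and 5.89.

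Being found in both lists was part of how the members were chosen, so the shares found are a description. Of 407 T3 peaks in the window, 298 (73.2%, 95% Wilson interval 68.7 to 77.3) overlapped a T2 peak, and of 2880 elsewhere 2189 did (76.0%, 74.4 to 77.5), against 75.7% over all chromosomes. Of 357 T2 peaks in the window, 299 (83.8%, 79.6 to 87.2) overlapped a T3 peak, and of 2486 elsewhere 2190 did (88.1%, 86.8 to 89.3), against 87.5% over all chromosomes, just above the upper limit for the window.

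The peaks on either side of the window's limits are given for reference. At 40%, the member nearest the limit (40.01%, chromosome 11 from 12320028 to 12320614) had folds of 4.40 in T3 and 4.63 in T2, and the nearest shared peak outside (39.9%, chromosome 9 from 15015305 to 15015608) had 5.15 and 5.59, on 74 T3 fragments inside and 86 outside, over T3 backgrounds of 3.35 and 3.29. At 60%, the nearest member (59.8%, chromosome 7 from 19073494 to 19073806) had folds of 5.98 and 6.07, and the nearest peak outside (60.1%, chromosome 7 from 19158970 to 19159274) had 5.95 and 5.91, on 118 T3 fragments inside and 88 outside, over T3 backgrounds of 4.001 and 2.79.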

How the data were processed

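Peak lists on 3 sheets were used. Sheet T1 repeats T3 in all 3288 rows and was left out. The submitters' processing notes name MACS2, Bowtie2, Picard and bedtools. Their versions and settings, any pooling and the build of the genome were not given in the sources used here, and positions are those of the lists, counted from 1. Per the file headers, the authors deposited a pileup signal and a fold enrichment ratio per peak. The −log10 p and −log10 q headers were damaged, and these deposited columns were read from the column order. Fragments are the pileup divided by the constant of which pileups are whole multiples (0.245 in T3, 0.224 in T2; 99.97% and 99.96% of peaks within 0.0051). Total depth is unknown, and Poisson and Wilson intervals cover counting error only, treating fragments or peaks as independent.

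A T3 peak was paired with the T2 peak of largest overlap. Tests are two-sided exact sign-flip permutations over 11 chromosomes (smallest possible p = 0.000977), or over 10 where a chromosome was left out. The threshold was 0.05. Main and planned tests were adjusted over 7 measures, and most settings added after seeing the data over the fewer measures they held. The work was run in Python 3.11.15 with numpy 2.4.6, pandas 2.3.3 and scipy 1.17.1. The test was tried on T3 folds shuffled over all shared peaks, with and without an added shift. Shuffling removes any likeness between neighbouring peaks, so the test was not checked under such likeness. Alternatives changed the window, the overlap, the filters on fold and background, the peaks compared with, the summary, the list and the chromosomes used. Named sites are the 10 strongest members by the lower fold, the strongest on each chromosome, the 3 weakest, widest and highest in background, the closest pair and those at the window's limits. The members, measures and rules were chosen with earlier results of these lists known.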

Additional observations from a re-analysis of the deposited data

How the results depend on the processing

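No paired analysis was possible because no label ties a list to a library or its replicate number; the tests pair regions within a chromosome, not libraries. Of 215 alternative values, 187 kept their direction and side of the threshold, or, untested, stayed within the spread. Many came from repeats that left out a chromosome and shared the rest, so this count is no measure of independent support. For measures not past the threshold, keeping their side means only that they still did not pass. The call in fragments held in 6 of 9 other planned settings and 4 of 11 such repeats. That in background held in 7 of 9 and 11 of 11. Among the 9, placing peaks by the summit of the T2 peak kept the same 298 and 2189 peaks. It repeated the main values, so it could not differ, and its values are among the 187. With a window of 45% to 55%, the log2 differences were -0.12 in fragments (adjusted exact permutation p = 0.142) and -0.16 in background. With chromosome means they were -0.076 and -0.11, and also leaving out peaks with over 10 times the lowest background -0.10 and -0.15 (adjusted exact permutation p = 0.242 and 0.109). Means turned the difference in width to 1.17 bp and in summit distance to -3.80 bp (0.563 and -3.87 bp with that filter), neither past the threshold. The filter alone gave -0.12 in fragments (adjusted exact permutation p = 0.0513). Settings added after seeing the data gave -0.11 in fragments with T2 values (exact permutation p = 0.0527, adjusted over fragments, background and width only). At the lowest background they gave -0.0078 in fragments, -0.0075 in T3 fold and -28.3 bp in width, and above it -0.033 in fragments and -0.056 in background. Limiting both lists to folds of 5 or more moved the central share with a T3 fold of 10 to 19.0% (elsewhere 24.2%), and T2 peaks moved the central share found in the other list to 83.8%. The causes were not tested. Leaving out each chromosome gave 0.048 to 0.088 in T3 fold and 0.064 to 0.111 in T2 fold, past the threshold only without chromosome 8, -0.14 to -0.10 in fragments and -0.28 to -0.22 in background, past it in all 11 repeats. Fragment numbers were fewest at 54 (T3) and 55 (T2) among members; counting error bears most on sites with few fragments.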
